A study of Mus musculus with 8 samples.

Results

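The genes described here are 10 members of the mouse family of regulators of G-protein signalling: Rgs2, Rgs3, Rgs4, Rgs7, Rgs9, Rgs10, Rgs11, Rgs12, Rgs16 and Rgs17. They were taken by symbol from a table of 27534 genes, in which all 10 have a row, and all 10 had enough reads to be tested. The RNA came from isolated pancreatic islets of C57BL/6J mice, the endocrine clusters of the pancreas, of which β cells are the main cell type. Islets were cultured for 72 h in RPMI medium with fetal bovine serum and either 20 mM glucose (high glucose, 4 libraries) or 7.5 mM glucose (low glucose, 4 libraries). The series as a whole concerns the stress sensor IRE1α and the Golgi during early β-cell compensation, but no group here carries a mutation or a drug. Whole islets hold several cell types, and the sources used here do not give the animals' age or sex, how many animals a library came from, or whether islets were pooled.

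A receptor that couples to heterotrimeric G proteins loads GTP onto a Gα subunit, and Gα-GTP and the released Gβγ then act on adenylyl cyclases, phospholipases and ion channels. RGS proteins bind Gα-GTP and speed up the hydrolysis of its GTP, which shortens the signal. In β cells, Gq-coupled receptors such as the M3 muscarinic receptor raise insulin release, whereas Gi-coupled receptors such as the α2A-adrenergic receptor lower it, so RGS proteins can act on either side. The members fall into 4 subfamilies by protein structure: the small R4 proteins (Rgs2, Rgs3, Rgs4 and Rgs16, although Rgs3 also has long forms), the R7 proteins that need the partner Gβ5 (Rgs7, Rgs9 and Rgs11), the R12 proteins (Rgs10 and Rgs12) and the RZ protein Rgs17.

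High glucose libraries held 20516328 to 24905499 gene counts and low glucose libraries between 19543045 and 24949515, so that the floor of 3 counts lay between 0.120 and 0.154 CPM, a floor that covers counting error only. CPM here is a gene's count scaled to a common library size after TMM adjustment, and differences between groups are given on it. As a check of the glucose labels, Txnip, a glucose-induced gene, averaged 1006 ± 89.8 CPM in high glucose and 181 ± 21.9 CPM in low glucose (mean ± SD, n = 4 each, here and below). Txnip shares 606 exon bases with Gm15441 on the opposite strand, and the strand setting of the counting is not given. The islet label held against its markers, since the 9 β-cell markers together made up 20.6% to 25.7% of the counts in high glucose and between 19.5% and 25.5% in low glucose. Most of this was insulin, since Ins1 and Ins2 alone made up 17.2% to 22.7% of the counts over the 8 libraries. Of the 9 markers, edgeR found 2 higher in high glucose (Iapp and G6pc2) and 3 lower (Slc2a2, Mafa and Ucn3). Over all tested genes, 25.0% changed in the same test. Acinar markers summed to between 4080 and 21080 CPM in high glucose and between 1416 and 12150 CPM in low glucose, so that exocrine RNA varied widely within both groups, and 0 of the 12 tested changed in edgeR, DESeq2 or limma-voom or had an unadjusted p under 0.05. The 2 libraries numbered 2 had the highest values on the second principal component, though not close together (24.3 in high glucose and 46.6 in low glucose). Results are given without them where that matters.

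Of the 10 RGS transcripts, 5 differed between the glucose concentrations. Rgs16 and Rgs4 rose 3.72-fold and 2.57-fold in high glucose and Rgs9 rose 1.53-fold, while Rgs3 and Rgs2 fell 1.54-fold and 1.56-fold. The other 5, Rgs7, Rgs10, Rgs11, Rgs12 and Rgs17, did not pass the test. The test was edgeR's quasi-likelihood test over 15442 genes with the Benjamini-Hochberg adjustment, and a gene was called at an adjusted p under 0.05. In the same test 25.0% of all genes were called, 13.1% higher and 11.9% lower in high glucose, so calls were common in these islets. The test had no term for the replicate number. With that number in the model Rgs7 was called as well, and genes changed numbered 5779, against 3854 without it. The median log2 fold change was 0.18 over the 10 members and -0.01 over all genes tested. A change that was called and at least 2-fold was found in 2 of the 10 members and in 4.77% of all genes. In bulk RNA, a change in the number of cells that hold a transcript and a change of its amount per cell cannot be told apart. Among the marker lists of other cell types, summed levels were apart between the groups for duct cells (554 to 577 CPM in high glucose, 408 to 524 CPM in low glucose; 1 of 6 markers called) and for neurons and Schwann cells (90.1 to 107 CPM in high glucose, 72.7 to 87.0 CPM in low glucose; Tubb3 called higher and Elavl4 lower, of 6). No marker of these 2 lists was at 0 in all libraries, and their part in the RGS values was not tested.

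**Figure D1:**
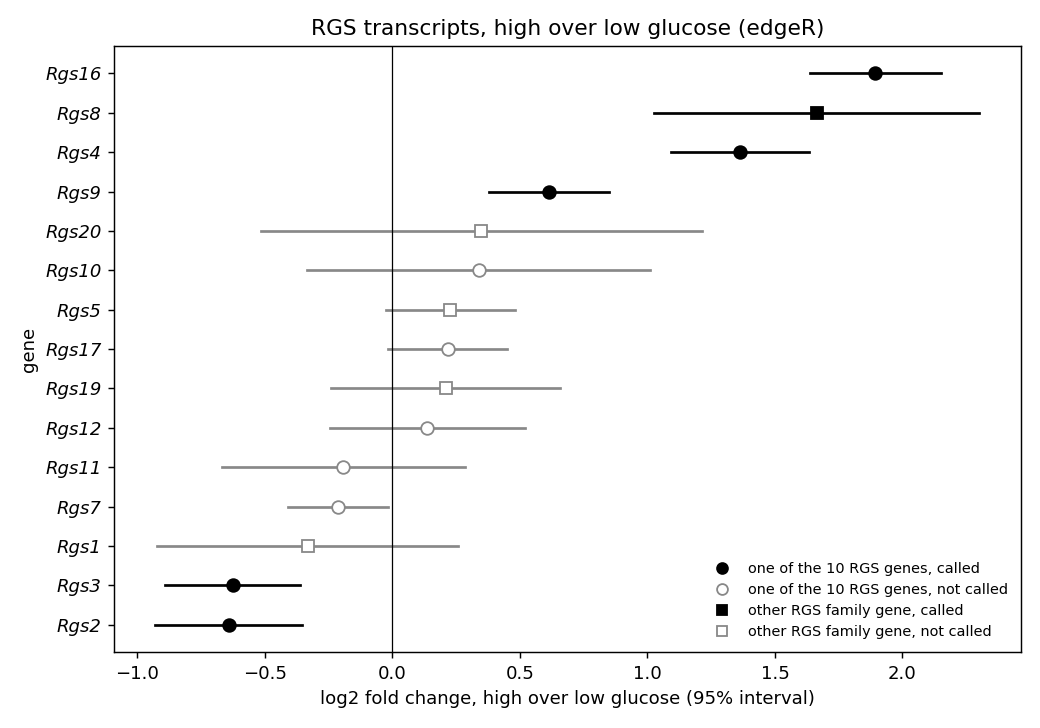
Log2 fold change of high over low glucose (x axis) for the 10 RGS members and the 5 other RGS genes that could be tested (y axis), with points for the edgeR estimate and bars for the 95% confidence interval. Rgs16 lies highest of the members at 1.89 and Rgs4 next at 1.36, Rgs2 and Rgs3 lie below zero at -0.64 and -0.63, and the interval of Rgs10, from -0.33 to 1.01, is the widest among the members.

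Of the members, Rgs16, Rgs4, Rgs2 and Rgs7 lie on chromosome 1. In Rgs16, Rgs4 and Rgs2, the sequences just upstream of the transcript start share a feature. It was not found in the windows of the other 6 matched members, Rgs7 among them. The RefSeq windows (GRCm38.p6, 250 bases before the annotated start, 5′ to 3′ on the gene's strand) are shown because these 3 called members share that feature. Capitals mark TAAAAG, which resembles the TATA box, and in Rgs2 also a match, on the other strand, to GCGNGGGCG, the motif of the Egr transcription factors. The windows lie at chr1:153740103-153740352 on the plus strand for Rgs16, chr1:169747643-169747892 on the minus strand for Rgs4 and chr1:144004150-144004399 on the minus strand for Rgs2.
Rgs16: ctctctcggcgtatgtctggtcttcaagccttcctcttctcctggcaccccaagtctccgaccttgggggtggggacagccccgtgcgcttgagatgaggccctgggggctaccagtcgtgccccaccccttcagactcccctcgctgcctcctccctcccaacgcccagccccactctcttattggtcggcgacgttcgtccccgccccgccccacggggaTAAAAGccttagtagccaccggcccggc
Rgs4: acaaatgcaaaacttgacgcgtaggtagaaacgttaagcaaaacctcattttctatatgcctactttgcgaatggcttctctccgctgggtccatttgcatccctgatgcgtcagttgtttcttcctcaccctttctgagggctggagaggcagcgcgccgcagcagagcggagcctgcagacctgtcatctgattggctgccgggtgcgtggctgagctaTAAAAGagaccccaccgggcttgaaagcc
Rgs2: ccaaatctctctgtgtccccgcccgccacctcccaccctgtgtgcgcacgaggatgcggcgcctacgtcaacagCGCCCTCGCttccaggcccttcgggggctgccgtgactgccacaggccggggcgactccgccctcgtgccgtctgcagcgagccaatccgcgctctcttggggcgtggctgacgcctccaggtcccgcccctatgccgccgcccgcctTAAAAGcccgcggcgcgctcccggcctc

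TAAAAG began 28 bases before the start in Rgs16 and Rgs2 and 29 bases before it in Rgs4. Within the last 40 bases on the gene's strand, 1.65% of the 32851 promoter windows of the RefSeq table hold these letters in this order. The 9 matched members have 11 windows, and none of the others held them there (Rgs11 was not matched). Of the further RGS genes, 6 were matched, with 10 windows, and none of these held the letters there. Rgs8 and Rgs5, also on chromosome 1, are among them. For Rgs7 and Rgs9 the 25 bases after the RefSeq start were found in no annotated transcript of the gene. What their windows hold or lack is therefore less certain. They were looked for after the windows had been read, so their sharing is a description. Since Rgs16 and Rgs4 rose and Rgs2 fell, the feature is common to members of both directions. Of the other motifs searched on both strands, CACGTG (the E box; in 6.02% of all windows) was in the window of Rgs7 alone among the members. GCGNGGGCG (4.70% of all windows) was in that of Rgs2 alone. TGACGTCA (the cyclic AMP response element; 1.55%) and a pair of CANNTG with 5 bases between them (0.639%) were in none of the members' windows.

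Rgs16 encodes a small R4 protein that acts on Gi and Gq family subunits, and in mice it is transcribed in the embryonic endocrine pancreas. Rgs16 (ENSMUSG00000026475, GRCm38 chromosome 1, 153740349 to 153745468, plus strand) was at 85.9, 64.9, 90.5 and 68.1 CPM in high glucose replicates 1 to 4, compared with 22.4, 20.5, 21.0 and 19.3 CPM in low glucose replicates 1 to 4. Every high glucose library was well above every low glucose library, and the spread was wider in high glucose (77.4 ± 12.8 CPM) than in low glucose (20.8 ± 1.26 CPM). The log2 fold change was 1.89 ± 0.12 (SE; 95% interval 1.64 to 2.15; adjusted p = 4.5e-06 in edgeR), which placed Rgs16 at rank 31 of all tested genes by p. Rgs16 shares 236 exon bases with Gm28513 on the opposite strand. That gene had 1 count in a high glucose library, 1 in a low glucose library and 0 in the other 6, but the strand setting of the counting is not given, so reads of the shared bases cannot be assigned by strand.

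Rgs4 encodes an R4 protein that in mouse β cells restrains signalling from the M3 muscarinic receptor. Rgs4 (ENSMUSG00000038530, chromosome 1, 169741477 to 169747642, minus strand) was at 135, 171, 176 and 172 CPM in high glucose, compared with 53.2, 74.8, 67.1 and 59.0 CPM in low glucose. High glucose replicate 1 was the lowest of its group and apart from the other 3, and still stood above every low glucose library. The mean was 163 ± 19.2 CPM in high glucose and 63.5 ± 9.44 CPM in low glucose, and the log2 fold change was 1.36 ± 0.12 (95% interval 1.09 to 1.63; adjusted p = 3.5e-05 in edgeR).

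Rgs9 encodes an R7 protein best known from photoreceptors, where it ends the light response by acting on transducin, and from the striatum. Rgs9 (ENSMUSG00000020599, chromosome 11, 109225355 to 109298129, minus strand) was at 54.2, 49.4, 57.4 and 56.2 CPM in high glucose, compared with 38.0, 28.5, 40.9 and 34.2 CPM in low glucose. The groups did not overlap, and both had their lowest value in replicate 2. The log2 fold change was 0.62 ± 0.11 (95% interval 0.38 to 0.85; adjusted p = 0.002 in edgeR).

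Rgs3 encodes an R4 protein that acts on Gi and Gq subunits. Rgs3 (ENSMUSG00000059810, chromosome 4, 62559847 to 62704001, plus strand) was at 20.2, 17.9, 25.5 and 22.3 CPM in high glucose, compared with 33.2, 28.1, 36.8 and 34.5 CPM in low glucose. The highest of the high glucose libraries stayed below the lowest of the low glucose libraries. The log2 fold change was -0.63 ± 0.12 (95% interval -0.89 to -0.36; adjusted p = 0.0033 in edgeR). In the table Rgs3 is a single gene, so its long and short forms, which start far apart, were not separated.

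Rgs2 encodes an R4 protein that prefers Gq subunits. Rgs2 (ENSMUSG00000026360, chromosome 1, 143999338 to 144004161, minus strand) was at 17.01, 22.8, 20.0 and 23.3 CPM in high glucose, compared with 31.1, 39.7, 27.7 and 31.3 CPM in low glucose. The groups were apart, and replicate 2 was the highest low glucose library. The log2 fold change was -0.64 ± 0.13 (95% interval -0.93 to -0.35; adjusted p = 0.0048 in edgeR).

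The 5 called members were also the 5 whose groups did not overlap, against 27.3% of all tested genes without overlap. Between libraries of the same number, Rgs16 and Rgs4 differed by at least 1.66 and 1.19 on the log2 scale in every pair, and Rgs9 by at least 0.49. Rgs3 was lower in high glucose by 0.53 to 0.71 and Rgs2 by 0.42 to 0.86 in the 4 pairs. All 5 calls held under each of the 15 alternative settings, the libraries numbered 2 left out included, with an adjusted p of at most 0.0176. In the authors' deposited table the log2 fold changes were 1.90 for Rgs16, 1.37 for Rgs4, 0.62 for Rgs9, -0.62 for Rgs3 and -0.64 for Rgs2.

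**Figure D2:**
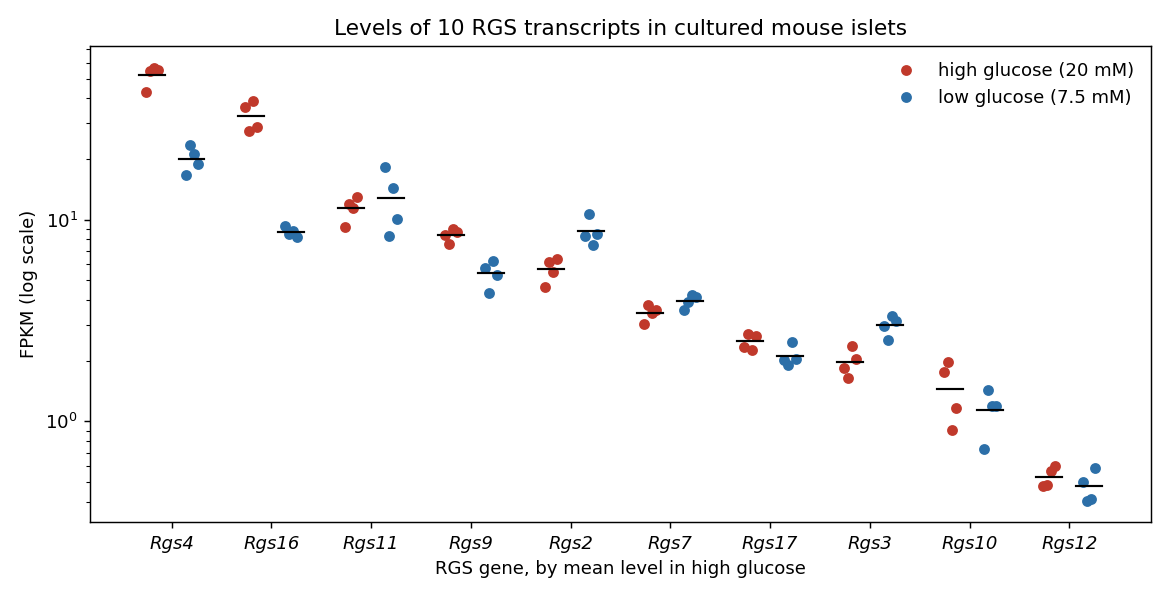
FPKM on a log axis (y axis) of the 10 RGS genes in each library (x axis, in order of the mean level in high glucose), with high glucose left of low glucose, points for libraries and lines for group means. Rgs4 stands first in both groups, at 52.3 FPKM in high glucose and 20.0 FPKM in low glucose, while Rgs16 stands second in high glucose, at 32.8 FPKM, and just below Rgs2 in low glucose, at 8.68 FPKM.

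The remaining 2 R7 members, Rgs7 and Rgs11, were not called, and whether they differ from Rgs9 was not tested. Rgs7 (ENSMUSG00000026527, chromosome 1, 175059087 to 175492500), abundant in brain, averaged 21.0 ± 1.89 CPM in high glucose and 24.3 ± 1.67 CPM in low glucose. It was lower in high glucose in each of the 4 same-number pairs, but the groups overlapped, and with a log2 fold change of -0.21 ± 0.09 (95% interval -0.41 to -0.01) it was not called (adjusted p = 0.113 in edgeR). With the replicate number as a block it was called (log2 fold change -0.22, adjusted p = 0.0442). Scaling by library size alone gave a call too (-0.30, adjusted p = 0.0315). Rgs11 (ENSMUSG00000024186, chromosome 17, 26202951 to 26211324) was at 39.2, 50.8, 47.7 and 54.9 CPM in high glucose, compared with 78.4, 36.1, 62.2 and 42.9 CPM in low glucose. Low glucose replicates 1 and 3 were above every high glucose library and replicate 2 below them all, so the low glucose group spanned the other. The log2 fold change was -0.19 ± 0.21 (95% interval -0.67 to 0.28; adjusted p = 0.564 in edgeR), and without low glucose replicate 1 it turned to 0.03 (adjusted p = 0.926). Rgs11 shares 138 exon bases with Arhgdig on the opposite strand. Arhgdig averaged 25.7 ± 2.94 CPM in high glucose and 16.2 ± 2.44 CPM in low glucose, so the values of both are uncertain.

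Rgs17, Rgs10 and Rgs12 gave no call. Rgs17 (ENSMUSG00000019775, chromosome 10, 5825663 to 5922400), which acts on Gαz and other Gi family subunits, averaged 20.9 ± 1.94 CPM in high glucose and 18.0 ± 2.13 CPM in low glucose (log2 fold change 0.22 ± 0.11, 95% interval -0.02 to 0.45, adjusted p = 0.168 in edgeR). Rgs12 (ENSMUSG00000029101, chromosome 5, 34949445 to 35039644), a large protein with several domains, averaged 4.55 ± 0.52 CPM in high glucose and 4.14 ± 0.72 CPM in low glucose (log2 fold change 0.14 ± 0.17, adjusted p = 0.609). Rgs10 (ENSMUSG00000030844, chromosome 7, 128373621 to 128418758), abundant in immune cells, averaged 2.51 ± 0.87 CPM in high glucose and 1.99 ± 0.51 CPM in low glucose (log2 fold change 0.34 ± 0.30, adjusted p = 0.460). Rgs10 rests on only 33 to 66 counts per high glucose library and 34 to 47 per low glucose library, and its 95% interval reaches from -0.33 to 1.01, which includes the fold change of Rgs9. The 8 macrophage markers, which bear on Rgs10, summed to between 232 and 339 CPM in high glucose and between 267 and 429 CPM in low glucose. None of these markers was at 0 in all libraries, and 0 of 8 were called by edgeR, DESeq2 or limma-voom or had an unadjusted p under 0.05. Their part in the values of Rgs10 was not tested.

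Levels were compared between genes per length, in the authors' FPKM, a count divided by gene length and by a total per library that is not its count sum. The length used there equals the joined exons of all forms of a gene, so genes with long alternative forms, such as Rgs3, can read lower than a single form would. In high glucose the order was Rgs4 (52.3 ± 6.28 FPKM), Rgs16 (32.8 ± 5.56), Rgs11 (11.4 ± 1.58), Rgs9 (8.42 ± 0.59), Rgs2 (5.68 ± 0.78), Rgs7 (3.46 ± 0.31), Rgs17 (2.49 ± 0.22), Rgs3 (1.97 ± 0.31), Rgs10 (1.45 ± 0.49) and Rgs12 (0.53 ± 0.06). Only the neighbours Rgs17 and Rgs3, and Rgs3 and Rgs10, overlapped in range. In low glucose the order was Rgs4 (20.0 ± 2.93 FPKM), Rgs11 (12.7 ± 4.40), Rgs2 (8.73 ± 1.36), Rgs16 (8.68 ± 0.48), Rgs9 (5.41 ± 0.81), Rgs7 (3.95 ± 0.28), Rgs3 (3.00 ± 0.34), Rgs17 (2.11 ± 0.25), Rgs10 (1.13 ± 0.29) and Rgs12 (0.48 ± 0.09). There the ranges of Rgs4 and Rgs11, of Rgs11 and Rgs2, and of Rgs2 and Rgs16 overlapped, so positions 1 to 4 were not set apart from neighbour to neighbour.

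Summed over the 10 members, the FPKM came to 120 ± 8.28 in high glucose (111 to 131) and 66.3 ± 3.31 in low glucose (62.0 to 69.5). The R4 sum made up nearly all of that difference, with 92.7 ± 7.54 FPKM in high glucose and 40.4 ± 3.45 FPKM in low glucose. Within R4 the rise lay in Rgs4 and Rgs16. Rgs2 and Rgs3 were lower in high glucose (5.68 against 8.73 FPKM and 1.97 against 3.00 FPKM in low glucose). The R7 sum was 23.2 ± 1.91 FPKM in high glucose and 22.1 ± 4.96 FPKM in low glucose, and its ranges overlapped. Rgs4 alone held 43.3% of the summed FPKM in high glucose and 30.3% in low glucose. Rgs16 held 27.3% in high glucose and 13.1% in low glucose. The shares of Rgs2 (4.72% in high glucose, 13.2% in low glucose) and Rgs11 (9.42% in high glucose, 19.1% in low glucose) were smaller in high glucose, although the level of Rgs11 itself was not called changed. These sums follow from the member values above and are a description without a test of their own.

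**Figure D3:**
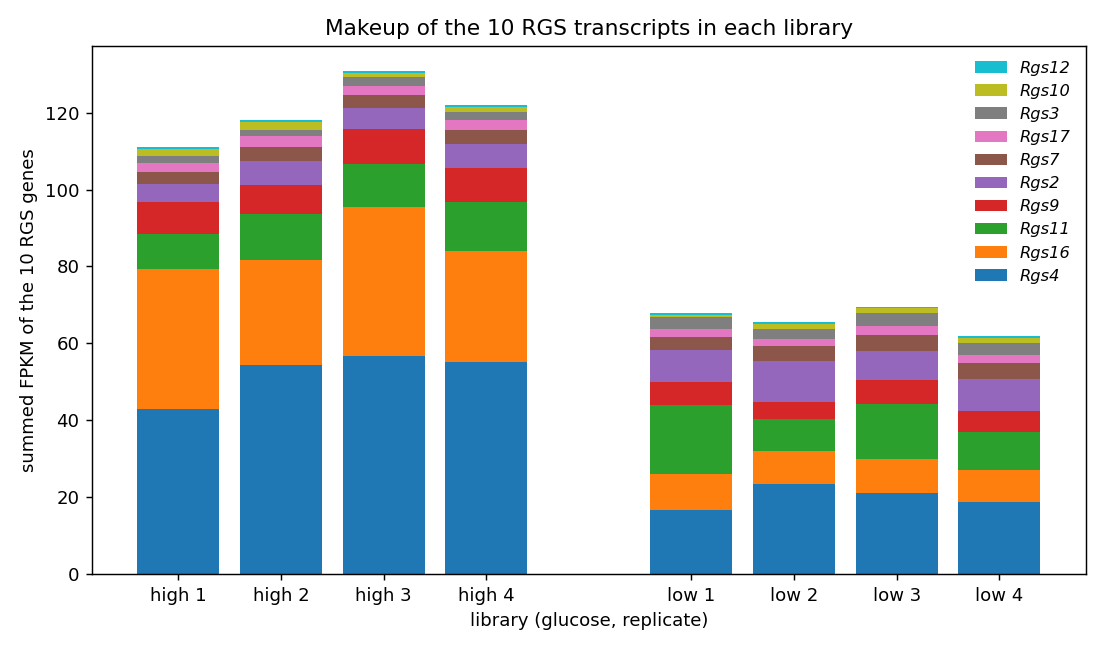
Summed FPKM of the 10 RGS genes (y axis) in each of the 8 libraries (x axis, high glucose left of low glucose), split by gene. The high glucose bars reach 111 to 131 and the low glucose bars 62.0 to 69.5, and the segments of Rgs4 and Rgs16 hold most of the difference.

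Of 11 further RGS genes, 8 have a row in the table and 5 had enough reads to be tested, of which only Rgs8 changed. Rgs8 encodes an R4 protein which in mice is transcribed with Rgs16 in the embryonic endocrine pancreas. It had 37, 21, 45 and 47 counts in high glucose, compared with 14, 11, 12 and 10 counts in low glucose. The groups were apart although the counts were small. Its log2 fold change was 1.66 ± 0.29 (95% interval 1.03 to 2.30; 3.17-fold; adjusted p = 0.0019 in edgeR), on means of 1.72 ± 0.44 CPM in high glucose and 0.541 ± 0.05 CPM in low glucose. Rgs5, a marker of pericytes, averaged 21.3 ± 1.58 CPM in high glucose and 18.2 ± 2.83 CPM in low glucose and was not called (log2 fold change 0.23, adjusted p = 0.182 in edgeR), except without low glucose replicate 3 (0.34, adjusted p = 0.0405). The pericyte and smooth muscle markers summed to between 43.5 and 63.8 CPM in high glucose and between 33.7 and 53.9 CPM in low glucose, with 1 of 6 tested called higher and no marker at 0 in all libraries. Their part in the values of Rgs5 was not tested. Rgs1, Rgs19 and Rgs20 were not called, with log2 fold changes of -0.33, 0.21 and 0.35. Rgs20 rests on only 13 to 19 counts per high glucose library and 6 to 16 per low glucose library. It also shares 127 exon bases with Atp6v1h and 125 with Gm17101, both on the opposite strand, so its values are uncertain. Rgs6, Rgs14 and Rgs22, with at most 8 counts in any library, were not tested.

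Several RGS genes lie near one another on chromosome 1. Rgs8 and Rgs16 lie 40025 bases apart on the same strand, and Rgs5 and Rgs4 45.7 kb apart on opposite strands with no listed gene between them. Rgs1 and Rgs2 lie 238 kb apart on the same strand, also with no listed gene between. The RefSeq window of Rgs13, a gene without a row here, lies between Rgs1 and Rgs2. The neighbours of Rgs16 and Rgs4 gave different values. Within 100 kb of Rgs16, 3 genes other than Rgs16 were tested and 2 were called, both higher in high glucose. Of all tested genes, 25.0% were called. These were Rgs8 and C230024C17Rik, a long noncoding RNA gene 2.5 kb upstream on the other strand, which were looked at after the data were seen. C230024C17Rik had 72, 25, 91 and 100 counts in high glucose, compared with 9, 2, 11 and 19 counts in low glucose. Both groups had their lowest count in replicate 2, and every high glucose library exceeded every low glucose library. Its log2 fold change was 2.79 ± 0.52 (adjusted p = 0.0029 in edgeR). Within 100 kb of Rgs4 the only tested gene was Rgs5, and it was not called. Within 100 kb of Rgs2 no other gene was listed. Within 100 kb of Rgs9, neither tested gene was called (Gna13, which encodes Gα13, -0.05, and the antisense gene Gm11696, -0.68, adjusted p = 0.654 and 0.117), and within 100 kb of Rgs3, 1 of 6 (Pole3, a DNA polymerase subunit, log2 fold change 0.41, adjusted p = 0.0167; not called without low glucose replicate 1 or 3). Gm11696 was called without high glucose replicate 2 (-0.93, adjusted p = 0.0418).

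By the root-mean-square difference of centred log2 CPM over the 8 libraries, the profiles nearest to Rgs16 among 10537 protein-coding genes with a mean of at least 5 CPM were those of Arrdc4 (0.111), Slco1a5 (0.148) and Dclk1 (0.172). Arrdc4, an arrestin-domain relative of Txnip, averaged 54.6 CPM in high glucose and 15.01 CPM in low glucose. The nearest to Rgs4 were the glycolytic enzyme gene Pgk1 (0.135), the endoplasmic reticulum chaperone gene Creld2 (0.139) and Chgb, which encodes the secretory granule protein chromogranin B (0.146). The nearest to Rgs2 were Amdhd2 (0.0864), Bri3 (0.0949) and Pts (0.0966), of which Amdhd2 and Pts encode enzymes of amino sugar and biopterin metabolism. All 9 were called in the direction of their RGS gene, which a measure over both groups favours. Slco1a5 overlaps the body of Iapp on the other strand without sharing exon bases. Bri3 shares 179 exon bases with 2900089D17Rik and 49 with Baiap2l1, so the values of Bri3 are uncertain.

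The proteins that RGS proteins work with were looked at in 6 lists, and medians below are of log2 fold changes. For comparison with each list, 25.0% of all tested genes were called, 13.1% higher and 11.9% lower, and their median was -0.01. No list was tested as a set, so its counts are a description. None of the 4 tested R7 partner genes was called in edgeR or at an unadjusted p under 0.05, nor by DESeq2 or limma-voom. Gnb5, which encodes the Gβ5 that R7 proteins need, had a log2 fold change of -0.05 ± 0.08, the membrane anchor gene Rgs7bp -0.10 ± 0.09 and the receptor gene Gpr158 0.00 ± 0.12.

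Of 14 tested Gα genes, 1 was called higher and 2 lower (5 lower with library size alone and 4 with the replicate block). Their median was -0.07. Gnai2, which encodes the Gi subunit Gαi2 and had the highest FPKM of these genes, fell to 406 ± 34.8 CPM in high glucose, compared with 750 ± 41.6 CPM in low glucose (1.85-fold, adjusted p = 5.3e-05 in edgeR). Its libraries lay between 375 and 436 CPM in high glucose and between 702 and 801 CPM in low glucose, with no overlap. Gnat2, the cone transducin subunit, which Rgs9 acts on in photoreceptors, averaged 41.2 ± 4.72 CPM in high glucose and 23.6 ± 3.00 CPM in low glucose, 1.74-fold higher (adjusted p = 0.00044). Gnal, which encodes the olfactory subunit Gαolf, averaged 3.27 ± 0.58 CPM in high glucose and 5.17 ± 0.15 CPM in low glucose, 1.58-fold lower (adjusted p = 0.0138), and shares 852 exon bases with Mppe1. The Gq genes Gnaq and Gna11 were not called (-0.14 and -0.02), except Gnaq with the replicate block (adjusted p = 0.0464).

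Of 10 tested Gβ and Gγ genes, 3 were called higher and 1 lower (5 higher with the replicate block or without low glucose replicate 2), with a median of 0.13. Gng12 was the most abundant of them per length and rose 1.73-fold, to 1230 ± 94.3 CPM in high glucose, compared with 713 ± 49.7 CPM in low glucose (adjusted p = 0.00012 in edgeR), although it shares 125 exon bases with 4930597O21Rik. Gng4 rose 1.24-fold (adjusted p = 0.0088). Gng2, 1.36-fold higher (adjusted p = 0.0239), and Gng7, 1.46-fold lower (adjusted p = 0.0388), lost their calls with the low-count filter left off and with both libraries numbered 2 left out. Gng2 also lost its call without high glucose replicate 1 or 2 or low glucose replicate 1 or 3, and Gng7 without any 1 of the high glucose libraries or without low glucose replicate 3 or 4.

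Of 21 tested other regulators of the G-protein cycle and of receptor desensitization, 1 was called higher and 7 lower, with a median of -0.19. The count of lower genes was 4 without high glucose replicate 2, 3 or 4 or without low glucose replicate 1. The count of higher genes was 3 with the replicate block or with both libraries numbered 2 left out. It was 2 with DESeq2 or without low glucose replicate 2. Ric8b, a chaperone for Gs and Gαolf subunits, rose to 65.3 ± 1.16 CPM in high glucose, compared with 38.0 ± 0.72 CPM in low glucose (1.72-fold, adjusted p = 9.9e-06 in edgeR). Rap1gap, whose product inactivates Rap1 and binds Gi subunits, averaged 70.1 ± 3.89 CPM in high glucose and 105 ± 4.37 CPM in low glucose (log2 fold change -0.58, adjusted p = 0.00017). The receptor kinase gene Grk5 was 1.57-fold lower (adjusted p = 0.00071) and Snx25, a sorting nexin with an RGS-like domain that shares 132 exon bases with Cfap97, 1.30-fold lower (adjusted p = 0.0021). Grk3, Axin1, Axin2 and Gpsm1 were the others called lower. Gpsm1 lost its call when any library but low glucose replicate 2 or 4 was left out, and Axin2 when any but high glucose replicate 1 or low glucose replicate 2 was. Axin1 lost its call without high glucose replicate 2, 3 or 4 or low glucose replicate 1 or 4. With the low-count filter left off, Gpsm1 and Axin1 were not called either, nor was Axin2 with both libraries numbered 2 left out. The β-arrestin genes Arrb1 and Arrb2 were not called (0.52 and -0.24), except with the replicate block (adjusted p = 0.0283 and 0.0394) and, for Arrb2, with library size alone or without low glucose replicate 4.

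Of 17 tested effectors, 0 were called higher and 2 lower, with a median of 0.07. None was higher at an unadjusted p under 0.05 either, nor by DESeq2 or limma-voom. The adenylyl cyclase gene Adcy6 averaged 101 ± 10.6 CPM in high glucose and 141 ± 11.6 CPM in low glucose, 1.40-fold lower (adjusted p = 0.0036 in edgeR). The exchange factor gene Arhgef12 was 1.49-fold lower (adjusted p = 0.0348) but lost its call when any of 6 libraries was left out, and its groups overlapped. The count of lower effectors was 5 with the replicate block or without both libraries numbered 2, 4 without low glucose replicate 2, and 1 when high glucose replicate 1, 2 or 4 or low glucose replicate 1, 3 or 4 was left out.

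Of 20 tested Gi- and Gq-coupled receptors of the islet, 5 were called higher and 2 lower, with a median of 0.10. Cnr1, the cannabinoid receptor gene, fell to 3.34 ± 0.70 CPM in high glucose, compared with 20.4 ± 5.86 CPM in low glucose (6.08-fold, adjusted p = 2.6e-05 in edgeR). The purinergic receptor gene P2ry1, which shares 992 exon bases with Gm37035, was 1.78-fold higher (adjusted p = 0.00018), the galanin receptor gene Galr1 1.67-fold higher (adjusted p = 0.00021) and the short-chain fatty acid receptor gene Ffar2 1.76-fold higher (adjusted p = 0.00042). Adora1, an adenosine receptor gene that shares 1162 exon bases with Mybph, was 1.41-fold lower (adjusted p = 0.0051). Adra2a and Ptger3 were also called higher, but Ptger3 lost its call with library size alone and without high glucose replicate 1 or 4 or any of low glucose replicates 1 to 3. The M3 muscarinic receptor gene Chrm3 had a log2 fold change of -0.09 and was not called (adjusted p = 0.486).

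**Figure D4:**
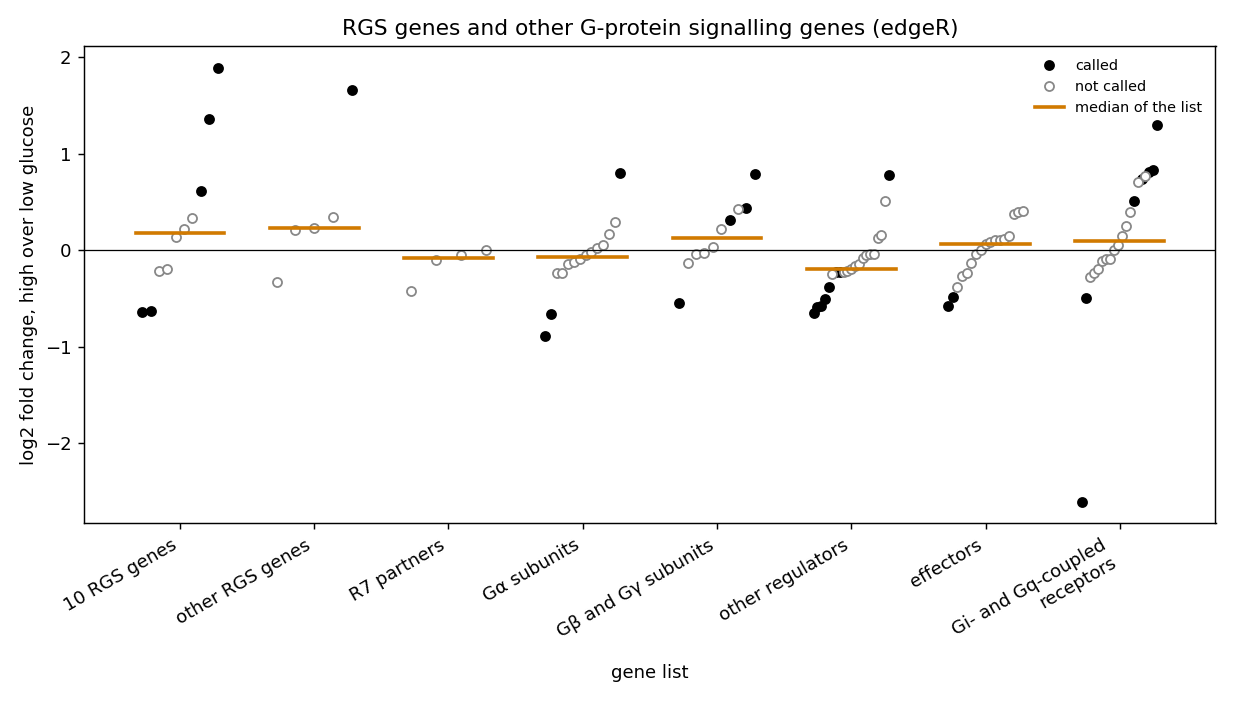
Log2 fold change of high over low glucose (y axis) for each tested gene of the RGS members, the other RGS genes and the 6 G-protein lists (x axis), with filled points for genes called by edgeR and bars for list medians. The members' median is 0.18 and the regulators' median -0.19, and Cnr1 among the receptors lies lowest at -2.60.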

How the data were processed

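Bulk RNA of 8 islet libraries was sequenced; the kit was NEBNext Ultra, per the labels' protocols. STAR 2.5, HTSeq 2 and DESeq2 (no version) and the builds mm10 and GRCm38 are named, per the submitters' processing notes; the annotation release, the strand setting and the treatment of reads with several matches were not given in the sources used here. Per the file headers, the deposited table holds the authors' raw read count per gene and library. It also holds a deposited signal per gene, which is the count over a size factor of its library. The authors' FPKM, also held there, equals the count per listed gene length and a total per library that is not its count sum. For low glucose replicate 1 that total was 27181060, against 24949515 counts, and for high glucose replicate 2 it was 19564671, against 20516328 counts. The authors' own comparison is deposited beside these, as a log2 fold change and a p-value for each gene.

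The test was that of edgeR 4.0.16 in R 4.3.3, run on the counts (TMM scaling; filterByExpr with a minimum count of 10 and a minimum total of 15; quasi-likelihood model with group as its only term; Benjamini-Hochberg over 15442 genes). SE was taken as the size of the log2 fold change over the root of its F statistic, and intervals are 95%. DESeq2 1.42.0, limma-voom (limma 3.58.1), other scalings, no filter, left-out libraries and the replicate block were alternatives. The procedure was tested on simulated data. Promoter windows came from RefSeq (GRCm38.p6; 9 of 10 members matched), and exon overlaps were read from a GRCm38 annotation.

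Members and lists were chosen with earlier results of these data known. The text names all 10 members, each tested RGS gene, from each G-protein list up to 4 called genes by smallest adjusted p, plus at most 2 called the opposite way, Txnip, and the 3 nearest profiles of the 3 called members with the largest change. Other genes named were chosen after their values were seen. The result of a gene near Rgs16 is not reported here.

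Replicate numbers 1 to 4 recur in both groups, with no label to explain them. Deviations from the group mean correlated between same-number libraries with r = 0.101, 0.449, 0.404 and 0.475 over 15442 genes. The numbers may therefore pair the samples. For number 1 this is weak, since low glucose replicate 1 correlated more with high glucose replicate 4 (r = 0.207). The main test had no term for the replicate number, and the block by that number was an alternative. Nothing says that libraries of a group came from separate animals, so p-values measure the spread between these libraries, which may be technical. The least chi-square per gene between 2 libraries was 9.64, so none was a copy of another.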

Additional observations from a re-analysis of the deposited data

Results flagged for a closer look

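Rgs4 in high glucose had a low library: replicate 1 was at 134.6 CPM, against 171 to 176 CPM in the other 3, a gap of 0.889 of the group's range, above Dixon's 95% critical value for 4 samples. Without that library the call of Rgs4 was kept. Ffar2, the short-chain fatty acid receptor gene, had a high library in low glucose: replicate 2 was at 34.34 CPM, against 28.2 to 28.8 CPM in the other 3, a gap of 0.90 of the range. Among genes named after their values were seen, Axin2 was at 10.14 CPM in high glucose replicate 1, against 6.10 to 6.49 CPM in the other 3, Gpsm1 at 97.35 CPM in high glucose replicate 4, against 107 to 109 CPM, and Arrb2 at 29.29 CPM in high glucose replicate 3, against 24.6 to 24.7 CPM. These were 5 of 136 groups looked at (3.68%), and chance flags about 1 in 20.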

How the results depend on the processing

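The 5 called members kept their direction and call in all 75 values under the 15 alternative settings, and 3 members were higher throughout. The number of lower members was 2, or 3 with the replicate block or with library size alone, where Rgs7 was added. Rgs11 (log2 fold change -0.19) ranged from -0.35 to 0.033 when 1 library was left out, and reversed, to 0.033, without low glucose replicate 1; the cause was not tested. With the replicate block, genes changed numbered 5779, 2917 higher and 2862 lower, against 3854, 2023 and 1831 without it, and over the 7 G-protein and RGS lists 17 were higher and 22 lower, against 11 and 14; the block changed no other call among the members. Leaving out 1 library at a time gave 2992 to 5110 genes changed, 1607 to 2635 higher and 1337 to 2475 lower, and over the lists 9 to 13 higher and 9 to 19 lower; the fewest lower (9) came without high glucose replicate 2 or 4. With library size alone, 37.8% of the called genes were higher, against 52.5% with TMM, and the median of all genes was -0.09. The cause of these shifts was not tested. Of 870 values of the other tested genes named, 806 kept direction and call, 48 lost and 7 gained a call, and 9 reversed. The 9 were of Gpr158 and Gna11, which were never called: Gpr158 (0.00) was at -0.083 with library size alone, -0.043 with both libraries numbered 2 left out and -0.087 to 0.093 with 1 library left out. Gna11 (-0.02) was at 0.014 with both libraries numbered 2 left out and -0.070 to 0.0066 with 1 library left out. Depth limits genes with few reads, among them Rgs10, Rgs8 and C230024C17Rik, which rest on at most 66, 47 and 100 counts in a library. Leaving out both libraries numbered 2 was added after the data were seen.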

Other observations

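The genes within 100 kb of the members that were not called, looked at after the data were seen, gave calls in both directions. Of all tested genes, 25.0% were called. Near Rgs12, Dok7, an adaptor of the muscle receptor MuSK, 17.1 kb downstream, had 26, 35, 50 and 29 counts in high glucose, against 161, 76, 89 and 98 in low glucose (log2 fold change -1.54 ± 0.26, adjusted p = 0.0016 in edgeR, lower in all 4 same-number pairs). The other 4 tested neighbours of Rgs12 were not called. Near Rgs10, 1 of 2 tested genes was called, BC017158 (log2 fold change 0.49 ± 0.11, adjusted p = 0.0107), and near Rgs7 none was tested. Near Rgs17, 1 of 2 tested genes was called, Fbxo5, an inhibitor of the anaphase-promoting complex (log2 fold change 0.78 ± 0.18, adjusted p = 0.009). Near Rgs11, 3 of 6 were called, Arhgdig higher (0.67 ± 0.12) and Tmem8 and Axin1 lower (-0.44 ± 0.08 and -0.22 ± 0.06).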
